A study of Mus musculus with 6 samples.

Results

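Myocardin, serum response factor (SRF) and the myocyte enhancer factor 2 (MEF2) proteins are transcription regulators of muscle genes, and they are described here with TEAD1 and the forkhead factors FOXO1 and FOXO3 in mouse aorta. The 8 genes, Myocd, Srf, Mef2a, Mef2c, Mef2d, Tead1, Foxo1 and Foxo3, were chosen by name, and all 8 were found by symbol among the 35275 genes of the deposited table. RNA from whole aorta was sequenced in 6 libraries, 3 labelled wild-type and 3 labelled EC-Jag1KO, a genotype in which the series removes the Notch ligand Jagged1 from mature endothelial cells. No source used here gives the Cre driver, allele, strain or age. Nor does any say whether each library is a different animal, and p-values therefore cover only the spread between these samples. Xist, an RNA made from the inactive X chromosome, was above 1 FPKM in wild-type replicate 3 and EC-Jag1KO replicate 3 alone, so each group held 1 female library. Jag1 itself measured 9.86, 10.6 and 16.9 FPKM in wild-type and 13.5, 9.42 and 19.6 FPKM in EC-Jag1KO libraries, and a whole-gene level in whole tissue does not check a deletion in endothelial cells.

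In vascular smooth muscle, SRF binds CArG boxes in the promoters of contractile genes, and myocardin, which does not bind this DNA by itself, joins SRF and activates transcription there. MEF2 factors bind A/T-rich sites, are held back by class IIa histone deacetylases, and take part in both the contractile and the growth programme of the vessel wall. TEAD1 carries the coactivators YAP and TAZ to DNA. FOXO factors, which insulin and growth factor signalling send out of the nucleus, act on metabolism, survival and the cell cycle, and FOXO proteins have been described as partners that restrain myocardin.

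Values are FPKM, the authors' read level scaled by gene length and by the library's assigned reads. Levels of different genes can be compared only as far as the deposited gene lengths hold. For Mef2a that length is 5538 bases, while its exons in GENCODE M21 cover 14681 bases. Reads assigned to genes, recovered from the values, numbered 19889910 to 25914325 per library, and each of the 8 factors rested on 1890 to 7989 reads in each library. The smooth muscle actin gene Acta2 stood at 6173 to 7672 FPKM and Myh11, the smooth muscle myosin heavy chain gene, at 1197 to 1576 FPKM. Tagln (3042 to 4429 FPKM), Myl9 (2799 to 3642 FPKM) and Myl6 (2153 to 4775 FPKM) lay between them. The lowest contractile gene listed was Itga1, an integrin gene, at 11.8 to 17.2 FPKM. EC-Jag1KO replicate 3 stood apart by gene length. On the log2(FPKM + 1) scale, its median difference from the mean of the other 5 libraries was -0.22 over the 3044 shortest tested genes (up to 1901 bases) and 0.17 over the 3043 longest (from 4484 bases), while the other libraries lay between -0.037 and 0.14 over the shortest and between -0.081 and -0.0035 over the longest. Of the 8 factors, 7 belong to these longest genes. Results for Myocd, Mef2a and Mef2c, and for Myocd relative to contractile genes, are therefore given with and without this library. Other results in which it stood high are not all given without it.

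CArG boxes stand in the promoters of some of the genes measured here, and 4 stretches are printed because they show the letters of this motif in the Srf gene itself and in contractile genes; no binding was measured. Promoter windows of RefSeq (GRCm38.p6, 250 bases before to 50 after a start) were matched by symbol for 6 of the 8 factors; Myocd and Tead1 were not matched. The stretches read 5′ to 3′ on the gene's strand, with CArG boxes in capitals. Srf lies at chr17:46556190-46556269 (minus strand), Myl9 at chr2:156775278-156775337 (plus strand), Myl6 at chr10:128493025-128493084 (minus strand) and Vcl at chr14:20929148-20929205 (plus strand). The Myl6 stretch comes from a RefSeq window inside the gene (128492960 to 128493259), and the other Myl6 window (128493837 to 128494136) held no CArG box.
Srf: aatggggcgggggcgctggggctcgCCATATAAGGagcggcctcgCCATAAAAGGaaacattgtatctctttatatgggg
Myl9: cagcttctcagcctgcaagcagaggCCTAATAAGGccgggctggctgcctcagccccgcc
Myl6: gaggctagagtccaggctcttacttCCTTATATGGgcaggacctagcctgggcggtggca
Vcl: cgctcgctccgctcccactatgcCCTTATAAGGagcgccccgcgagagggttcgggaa
The Srf promoter held 2 CArG boxes, which begin 82 and 62 bases before the start. A CArG box was found in 535 of 32851 promoter windows of all genes (1.63%), in 1 of 8 windows of the factors and in 3 of 22 windows of contractile genes, those printed. A MEF2 site was found in 3.19% of all windows and, among the factors, in Mef2a, where it does not lie wholly before the start. The TEAD letters GGAATG were found in 14.7% of all windows and among the factors in Mef2c and Foxo3. The FOXO letters GTAAACA were found in 3.65% of all windows and in none of the 8 factor windows. Both strands were searched in each case, and a match describes the letters only.

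The factors were well expressed in aorta, from the level of Mef2d down to that of Tead1. By mean over the 6 libraries, at the deposited gene lengths, the order was Mef2d, Srf, Mef2a, Myocd, Foxo3, Mef2c, Foxo1 and Tead1, from 54.9 FPKM for Mef2d to 11.9 FPKM for Tead1. Mef2d lay above 90.9% of the 12165 tested genes, those averaging 1 FPKM or more over the libraries, and Tead1 above 58.0%. Neighbours in this order overlapped in their ranges over the 6 libraries in every case except Mef2c and Foxo1. Mef2d was nevertheless above Srf in 6 of 6 libraries, and Myocd above Foxo3 in 6 of 6. All 8 factors lay far below Acta2 and Myh11 in level, but not below every contractile gene, since Itga1 averaged 14.2 FPKM in wild-type libraries.

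**Figure D1:**
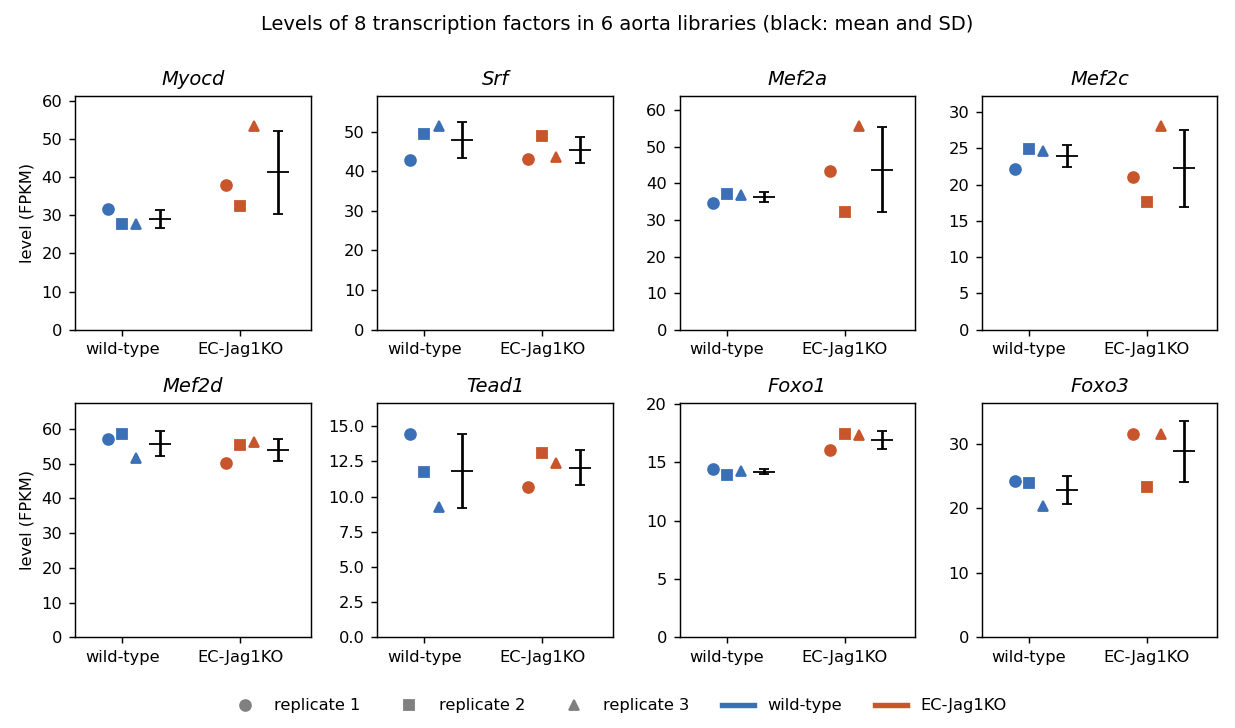
Level of each of the 8 factors (FPKM, linear axis from 0) in the 3 wild-type (blue) and 3 EC-Jag1KO (orange) libraries, with marker shape for the replicate and mean ± SD in black. Myocd and Foxo1 are the genes in which all 3 EC-Jag1KO points lie above all wild-type points, and replicate 3 is the highest EC-Jag1KO point for Myocd, Mef2a, Mef2c and Mef2d.

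Myocd (ENSMUSG00000020542, minus strand of chromosome 11, 65176561 to 65269989 in mm10) measured 31.7, 27.8 and 27.7 FPKM in wild-type replicates 1 to 3 and 37.9, 32.4 and 53.4 FPKM in EC-Jag1KO replicates 1 to 3. All EC-Jag1KO libraries lay above all wild-type libraries, though replicate 2 did so narrowly and replicate 3 stood well above the rest. The means were 29.0 ± 2.3 against 41.2 ± 10.9 FPKM (SD, n = 3 each), a log2 fold change of 0.46 (95% interval 0.045 to 0.88) and an adjusted p of 0.613 over all genes in limma. Fold changes are EC-Jag1KO minus wild-type on the log2(FPKM + 1) scale, which understates those of low genes, and more so the lower the level. The unadjusted p was 0.0345. With EC-Jag1KO replicate 3 left out, the Myocd log2 fold change was 0.27. Without both female libraries it was 0.23, the lowest value among 19 alternatives. With the gene length trend removed from each library it was 0.44 (adjusted p = 0.455 in limma).

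Srf (ENSMUSG00000015605, minus strand of chromosome 17, 46546839 to 46556162), whose product is the DNA-binding partner of myocardin, measured 42.9, 49.5 and 51.4 FPKM in wild-type and 43.2, 49.0 and 43.7 FPKM in EC-Jag1KO libraries. The groups overlapped, and their means of 47.9 ± 4.5 and 45.3 ± 3.2 FPKM (n = 3 each) differed by less than the replicate spread. The log2 fold change was -0.077 (95% interval -0.33 to 0.18, adjusted p = 0.910 in limma). The coactivator and its partner thus differed in sign, and the gap between them was not tested.

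Among MEF2 genes, Mef2a (ENSMUSG00000030557, minus strand of chromosome 7, 67231163 to 67372858) followed Myocd most closely. It measured 34.7, 37.1 and 36.8 FPKM in wild-type and 43.3, 32.3 and 55.7 FPKM in EC-Jag1KO libraries. The wild-type values were tight, while EC-Jag1KO replicate 2 lay below and replicates 1 and 3 above all of them. The means were 36.2 ± 1.3 against 43.8 ± 11.7 FPKM (n = 3 each), a log2 fold change of 0.23 (95% interval -0.20 to 0.66, adjusted p = 0.821 in limma). The Mef2a log2 fold change was 0.045 when EC-Jag1KO replicate 3 was left out and 0.43 when EC-Jag1KO replicate 2 was. Lysmd4, at 4.11 to 5.48 FPKM, shares 302 exon bases with Mef2a on the opposite strand in GENCODE M21, and the strand setting of the counting is not given.

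Mef2c (ENSMUSG00000005583, plus strand of chromosome 13, 83504034 to 83667079), which endothelial and immune cells also express, measured 22.2, 24.98 and 24.6 FPKM in wild-type and 21.1, 17.6 and 28.1 FPKM in EC-Jag1KO libraries. EC-Jag1KO replicate 3 was the highest of all 6 and the other EC-Jag1KO libraries were the lowest. The log2 fold change of -0.12 (95% interval -0.51 to 0.26, adjusted p = 0.904 in limma) turned to 0.026 when EC-Jag1KO replicate 2 was left out and was -0.30 when EC-Jag1KO replicate 3 was. Mef2d (ENSMUSG00000001419, plus strand of chromosome 3, 88142372 to 88172086), the most abundant MEF2 gene here, measured 57.0, 58.6 and 51.7 FPKM in wild-type and 50.3, 55.3 and 56.2 FPKM in EC-Jag1KO libraries. It varied least of the 3 MEF2 genes in EC-Jag1KO, with an SD of 5.92% of its mean against 26.7% for Mef2a and 24.1% for Mef2c, and its log2 fold change was -0.047 (95% interval -0.28 to 0.18, adjusted p = 0.940), which became 0.0018 when EC-Jag1KO replicate 1 was left out. In wild-type libraries these shares were 6.47% for Mef2d, 3.59% for Mef2a and 6.44% for Mef2c.

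Tead1 (ENSMUSG00000055320, plus strand of chromosome 7, 112679318 to 112906807) measured 14.5, 11.8 and 9.24 FPKM in wild-type and 10.7, 13.1 and 12.4 FPKM in EC-Jag1KO libraries. The EC-Jag1KO values all fell inside the wild-type range. The Tead1 log2 fold change was 0.042 (95% interval -0.34 to 0.42, adjusted p = 0.972 in limma), and it turned to -0.11 when wild-type replicate 3 was left out and to -0.015 when EC-Jag1KO replicate 2 was, so no direction can be given.

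Foxo1 and Foxo3 both lay higher in EC-Jag1KO libraries on average. Foxo1 (ENSMUSG00000044167, plus strand of chromosome 3, 52268337 to 52350109), which is also a regulator of endothelial growth, measured 14.4, 14.0 and 14.3 FPKM in wild-type and 16.1, 17.5 and 17.3 FPKM in EC-Jag1KO libraries. The groups did not overlap, and the wild-type values lay within an SD of 1.62% of their mean. The means were 14.2 ± 0.2 against 17.0 ± 0.8 FPKM (n = 3 each), a log2 fold change of 0.24 (95% interval 0.040 to 0.44), an unadjusted p of 0.0247 and an adjusted p of 0.585 in limma. Leaving out each library in turn kept the log2 fold change of Foxo1 between 0.22 and 0.28, the narrowest such range among Myocd, Mef2a, Foxo1 and Foxo3. Foxo3 (ENSMUSG00000048756, minus strand of chromosome 10, 42181841 to 42276755) measured 24.2, 24.0 and 20.4 FPKM in wild-type and 31.6, 23.4 and 31.6 FPKM in EC-Jag1KO libraries. EC-Jag1KO replicate 2 lay inside the wild-type range and the other EC-Jag1KO libraries above it, at a log2 fold change of 0.31 (95% interval -0.020 to 0.65, adjusted p = 0.659).

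None of the 8 factors passed limma's test adjusted over all 12165 genes, in which 0 genes (0%) passed at 0.05. At an unadjusted p under 0.05, 2 of the 8 lay higher, Myocd and Foxo1, and 0 lower, where 7.71% of all tested genes had such a p, 4.25% higher and 3.46% lower. The same 2 had groups that did not overlap with EC-Jag1KO above, against 6.84% of all tested genes. With so few members these shares describe the list and set nothing apart. The median log2 fold change of the 8 was 0.14, beside -0.00022 over all tested genes, and it was 0.080 with the length trend removed and 0.028 without both female libraries.

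**Figure D2:**
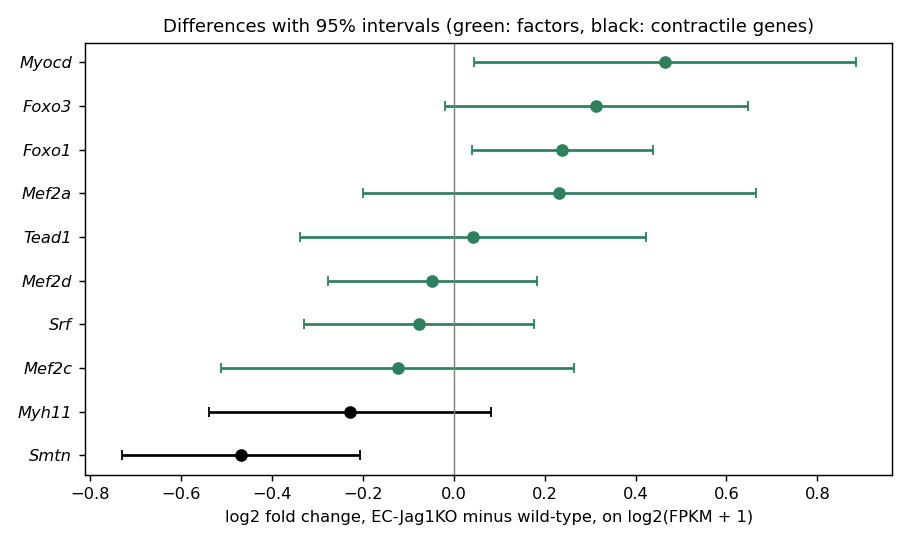
Log2 fold change (points) and 95% limma interval (bars) of the 8 factors in green and of Myh11 and Smtn in black, EC-Jag1KO minus wild-type on log2(FPKM + 1). The intervals of Myocd and Foxo1 lie above 0 and that of Smtn below 0 before adjustment for the number of genes tested.

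Contractile genes lay mostly the other way from Myocd. Smtn, which encodes the smooth muscle cytoskeletal protein smoothelin (ENSMUSG00000020439, minus strand of chromosome 11, 3517523 to 3540612), measured 366, 395 and 409 FPKM in wild-type and 269.9, 304 and 272 FPKM in EC-Jag1KO libraries, with no overlap. Its log2 fold change was -0.47 with an adjusted p of 0.402 in limma. Myh11 (ENSMUSG00000018830, minus strand of chromosome 16, 14194527 to 14291408) measured 1432, 1576 and 1415 FPKM in wild-type and 1268, 1197 and 1307 FPKM in EC-Jag1KO libraries, again with no overlap, at a log2 fold change of -0.23 (95% interval -0.54 to 0.081, adjusted p = 0.744).

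Set against these genes within each library, Myocd stood higher in every EC-Jag1KO library. Per 100 FPKM of Myh11 there were 2.21, 1.76 and 1.96 FPKM of Myocd in wild-type and 2.99, 2.71 and 4.09 FPKM in EC-Jag1KO libraries. Per 100 FPKM of Smtn there were 8.64, 7.02 and 6.76 FPKM of Myocd in wild-type and 14.0, 10.7 and 19.6 FPKM in EC-Jag1KO libraries. The log2 ratios differed by 0.71 and 0.95, that is 1.63-fold and 1.93-fold, and each gave p = 0.1 in an exact two-sided permutation test, the smallest that 3 against 3 allows (0.133 adjusted over the 4 ratios tested). Without EC-Jag1KO replicate 3 the differences were 0.53 and 0.72. A ratio within a library does not depend on its scaling, but it does keep the length trend, since Smtn (3386 bases) is shorter than Myocd (5114 bases). Ratios to Smtn also carry its own difference, the lowest log2 fold change (-0.47) among the 24 contractile genes described below. Ratios to contractile genes other than Myh11 and Smtn were not computed.

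Srf gave the tightest of these ratios. Per 100 FPKM of Smtn there were 11.7, 12.5 and 12.6 FPKM of Srf in wild-type and 16.0, 16.1 and 16.1 FPKM in EC-Jag1KO libraries, which did not overlap. This log2 ratio differed by 0.39 (exact two-sided permutation p = 0.1, adjusted 0.133), and by 0.36 to 0.41 with each library left out in turn. Srf itself overlapped between the groups (log2 fold change -0.077), so its ratio to Smtn mostly repeats the Smtn difference (-0.47). Per 100 FPKM of Myh11 there were 2.99, 3.14 and 3.63 FPKM of Srf in wild-type and 3.41, 4.10 and 3.35 FPKM in EC-Jag1KO libraries, which overlapped (difference 0.15, exact permutation p = 0.4).

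**Figure D3:**
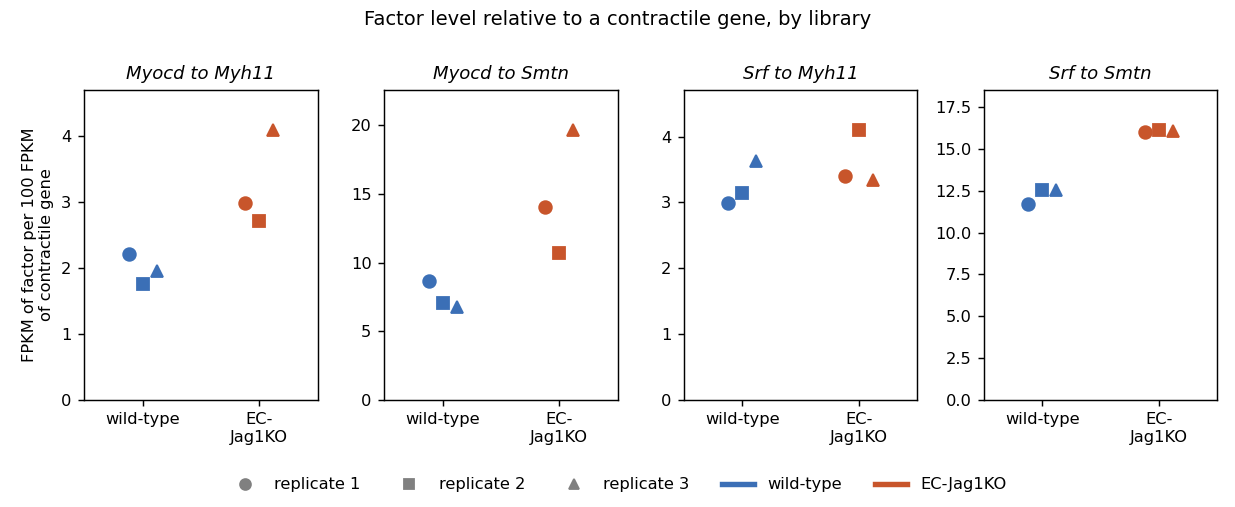
FPKM of Myocd or Srf per 100 FPKM of Myh11 or Smtn in each library (linear axes from 0, a separate scale per panel). The 3 EC-Jag1KO points lie above the 3 wild-type points in every panel except Srf to Myh11, and those of Srf to Smtn sit close together at 16.0 to 16.1.

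Of 24 contractile and cytoskeletal smooth muscle genes, 17 lay lower and 7 higher in EC-Jag1KO libraries, with a median log2 fold change of -0.17, where 50% of all tested genes lay lower. None passed over all genes. At an unadjusted limma p under 0.05, 4 lay lower and 1 higher, where 3.46% and 4.25% of all tested genes did. In 8 of them EC-Jag1KO lay wholly below wild-type, as in 6.73% of all tested genes. The caldesmon gene Cald1 had 460 ± 28 against 347 ± 34 FPKM, Mylk, which encodes myosin light chain kinase, 275 ± 9 against 212 ± 26 FPKM, and Lmod1, which encodes the actin nucleator leiomodin-1, 239 ± 14 against 178 ± 32 FPKM (n = 3 each). Against this trend the enteric smooth muscle actin gene Actg2, named after its values were seen, had 206 ± 27 against 282 ± 53 FPKM, a log2 fold change of 0.44. The contractile genes whose CArG boxes are printed above, also named after their values were seen, showed no common direction, with log2 fold changes of 0.051 for Myl9, -0.25 for Myl6 and -0.029 for Vcl. Myl6, a gene of 665 bases, stood at 2153 FPKM in EC-Jag1KO replicate 3 and at 3882 FPKM or more in the other 5.

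Of the markers of heart muscle and fat, 7 of 7 and 6 of 6 tested had log2 fold changes above 0, none of them past the adjusted threshold, and the summed levels of both lists overlapped between the groups. The fat markers were lowest in wild-type replicate 2, and on the FPKM scale the mean of Ucp1 was lower in EC-Jag1KO libraries (127 against 97.7 FPKM) and that of Cfd level (441 against 443 FPKM). The markers under the filter, Lep and Nppa, had lower means in EC-Jag1KO libraries. Summed over 9 endothelial markers, wild-type libraries had 298 to 427 FPKM and EC-Jag1KO libraries 333 to 425 FPKM. The 7 fibroblast markers summed to 1178 to 1433 against 1305 to 1442 FPKM, the 6 macrophage markers to 155 to 190 against 180 to 212 FPKM, and the 7 adipocyte markers to 226 to 1480 against 494 to 1099 FPKM. The 8 heart muscle markers, relevant since heart muscle makes Myocd and Mef2c, summed to 5.93 to 19.9 against 14.4 to 44.0 FPKM, highest in EC-Jag1KO replicate 2. Among them Myh7, a cardiac myosin heavy chain gene, measured 0.075, 0.15 and 0.70 FPKM in wild-type and 3.55, 1.82 and 5.26 FPKM in EC-Jag1KO libraries (unadjusted p = 0.00077, adjusted p = 0.284 in limma). It did not overlap between the groups. The EC-Jag1KO libraries of Myh7 stood in the same order as those of Myocd, but its wild-type libraries stood in the reverse order. Myh6, Tnnt2, Actc1, Myl4, Myl7 and Tnni3 were instead highest in EC-Jag1KO replicate 2, the lowest EC-Jag1KO library for Myocd. The 9 skeletal muscle markers summed to 4.82 to 7.57 against 5.59 to 5.92 FPKM, and the 5 Schwann cell markers to 10.1 to 12.9 against 10.5 to 11.8 FPKM. Myh1, Myh2, Myh4, Tnni2 and Pvalb of skeletal muscle and Nppa and Myl7 of heart muscle were listed at 0 in at least 1 library. The part of these cells in the levels of the 8 factors was not tested, and in whole tissue fewer cells of a type cannot be told apart from less RNA per cell.

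Cofactors and relatives of the factors lay lower more often than higher. Of 26 such genes 23 were tested, with 17 lower and 6 higher and a median of -0.093 (50% of all tested genes lay lower). At an unadjusted limma p under 0.05, 2 lay lower, where 3.46% of all tested genes did, and 0 passed the adjusted threshold. Mef2b, Tead4 and Vgll2 were under the filter. The myocardin-related coactivator genes, Mkl1 and Mkl2, named after their values were seen, had log2 fold changes of 0.13 and -0.12. Of the class IIa deacetylases that bind MEF2, Hdac7 had 33.9 ± 0.3 against 27.7 ± 4.6 FPKM and Hdac9 10.2 ± 1.6 against 8.01 ± 0.76 FPKM (n = 3 each), both with adjusted p above 0.6 in limma (0.645 and 0.647). Hdac4 and Hdac5 of the same class, also named after their values were seen, had log2 fold changes of 0.065 and -0.11 and overlapped between the groups. Tead2, a paralog of Tead1, had 4.44 ± 0.27 against 3.62 ± 0.15 FPKM, and Foxo6, a paralog of Foxo1 and Foxo3, 2.40 ± 0.76 against 1.07 ± 0.35 FPKM on 41 to 207 reads. The more abundant paralogs Tead3 and Foxo4, likewise named after their values were seen, had log2 fold changes of -0.092 and -0.067 and overlapped. In 5 of the 23 EC-Jag1KO lay wholly below wild-type, among them Hdac7, Tead2 and Foxo6, and in 0 wholly above. Over all tested genes these shares were 6.73% and 6.84%. The groups of Hdac9 overlapped.

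The growth-response genes of SRF hold early genes, which ternary complex factors activate after stimulation, and cytoskeletal genes. Among EC-Jag1KO libraries the SD ran from 3.06% of the mean for the filamin gene Flna to 73.7% for the early gene Fos. Of 14 tested, 11 lay lower and 3 higher, with a median of -0.12 (50% of all tested genes lay lower). At an unadjusted limma p under 0.05, 1 lay lower, where 3.46% of all tested genes did. Egr1, an early growth response factor, measured 35.7, 38.0 and 34.3 FPKM in wild-type and 33.5, 16.7 and 25.4 FPKM in EC-Jag1KO libraries (log2 fold change -0.55, adjusted p = 0.630 in limma). The AP-1 gene Junb had 71.0 ± 10.1 against 48.6 ± 24.3 FPKM and Ier2, another immediate early gene, 37.2 ± 4.9 against 30.4 ± 7.8 FPKM (n = 3 each), lowest in EC-Jag1KO replicate 2 in both cases. Ctgf, a matricellular protein gene that is a target of both SRF and TEAD factors, had 643 ± 226 against 959 ± 299 FPKM. Its groups overlapped.

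Genes linked to MEF2 gave no direction. Of 8 tested, 5 lay lower and 3 higher, and 0 had an unadjusted limma p under 0.05. The median of -0.070 turned to 0.041 when wild-type replicate 3 was left out. Hspb7, a small heat shock protein gene of muscle, had 198 ± 60 against 144 ± 42 FPKM and Nexn, which encodes the actin-binding protein nexilin, 70.4 ± 6.5 against 60.1 ± 7.0 FPKM (n = 3 each). Xirp1, a muscle actin-binding protein gene, had 25.3 ± 4.0 against 26.9 ± 5.4 FPKM. Hdac9, given above, is also in this list, and Nexn is also among the contractile genes.

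Of 22 YAP and TEAD target genes 21 were tested, with 12 lower and 9 higher. The median of -0.074 turned to 0.064 among genes averaging 5 FPKM or more. At an unadjusted limma p under 0.05, 2 target genes lay lower and 1 higher, where 3.46% and 4.25% of all tested genes did. Their differences spread from -0.66 for the tissue factor gene F3, the lowest, to 0.60 for Ctgf, the highest, around a Tead1 that stayed at 11.8 ± 2.6 against 12.1 ± 1.2 FPKM. Arhgef17, which encodes a guanine nucleotide exchange factor, had 53.4 ± 2.3 against 39.0 ± 7.1 FPKM without overlap, with EC-Jag1KO replicate 3 at 47.1 FPKM nearest to wild-type. Myof, the myoferlin gene of membrane repair, had 26.5 ± 2.0 against 34.1 ± 6.1 FPKM, also without overlap, and Tgfb2, a TGF-beta ligand gene, 25.1 ± 5.1 against 33.9 ± 8.4 FPKM.

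Of 20 tested FOXO target genes 12 lay higher and 8 lower, with a median of 0.050 (50% of all tested genes lay higher). At an unadjusted limma p under 0.05, 3 lay higher and 0 lower, where 4.25% and 3.46% of all tested genes did. Sesn3, which encodes the stress protein sestrin 3, measured 5.19, 3.35 and 3.29 FPKM in wild-type and 6.44, 4.65 and 9.01 FPKM in EC-Jag1KO libraries, with wild-type replicate 1 above EC-Jag1KO replicate 2. Insr, the insulin receptor gene, had 15.2 ± 2.0 against 18.8 ± 1.5 FPKM and overlapped narrowly. Cdkn1a, the gene of the cell cycle inhibitor p21, had 19.9 ± 1.1 against 25.3 ± 4.3 FPKM without overlap, and Bnip3, a mitophagy gene, 33.1 ± 8.6 against 42.6 ± 2.5 FPKM. The adjusted p values of Sesn3, Insr, Cdkn1a and Bnip3 in limma were 0.607, 0.629, 0.632 and 0.670. None of these counts was tested against the other lists.

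**Figure D4:**
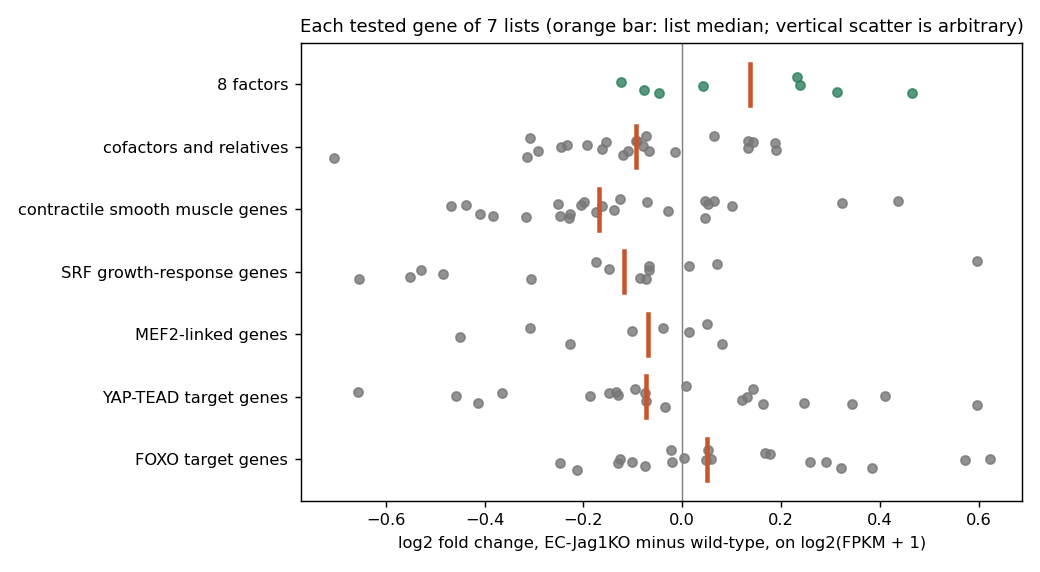
Log2 fold change of each tested gene (EC-Jag1KO minus wild-type, log2(FPKM + 1)) in the 8 factors and 6 further lists, with list medians as orange bars. Medians run from -0.17 for contractile genes to 0.14 for the 8 factors, and each list spreads on both sides of 0.

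Among the factors themselves, profiles over the 6 libraries were compared by the root-mean-square difference of log2(FPKM + 1) values after each gene was centred on its mean. Srf and Mef2d were the most alike pair (0.13), Mef2a lay 0.16 from both Foxo3 and Myocd, and Myocd and Srf were the least alike of the 28 pairs (0.39). Over the 8217 protein-coding genes averaging 5 FPKM or more, those most like Myocd were Btaf1 (0.036), Dennd4c (0.055), Arid5b (0.072), Pds5a (0.075) and Cpeb4 (0.079), beside a root-mean-square deviation of 0.32 for Myocd around its own mean. Btaf1 measured 5.98, 5.07 and 4.96 FPKM in wild-type and 7.74, 6.30 and 10.7 FPKM in EC-Jag1KO libraries, so it too was highest in EC-Jag1KO replicate 3. Those most like Srf were Ints1 (0.030), Gas6 (0.030), Pygo2 (0.030), Dmtf1 (0.033) and Trp53i13 (0.035), beside 0.10 for Srf around its own mean, and each of these was close to level between the groups. Gas6, a secreted ligand of the receptor AXL, measured 322 ± 26 against 314 ± 22 FPKM (n = 3 each). The 6 points of each profile share their libraries, and the likeness describes these libraries only.

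**Figure D5:**
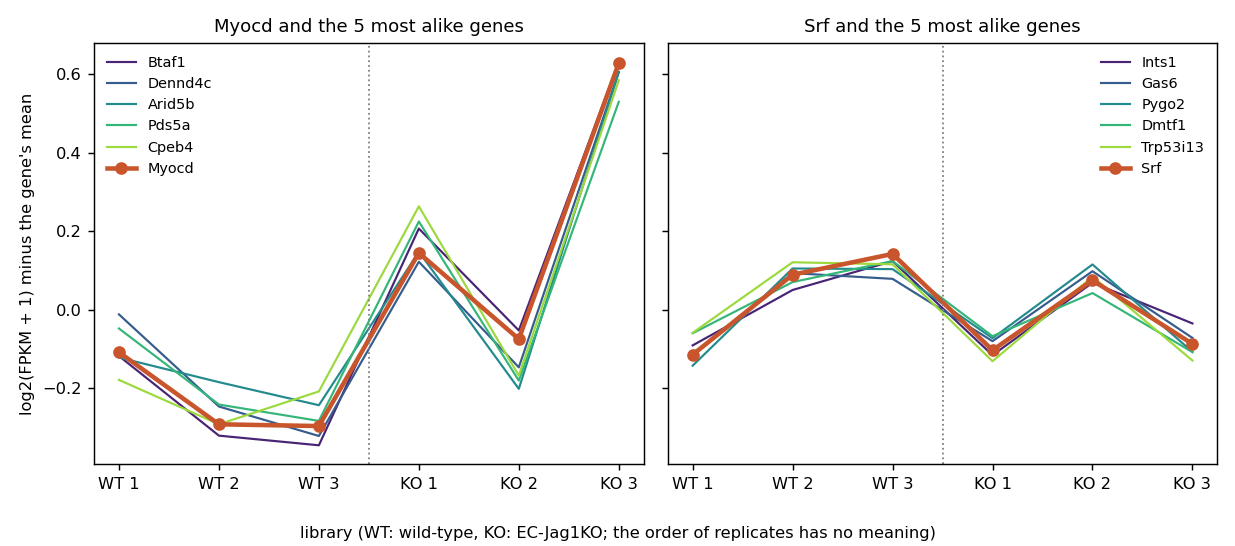
Centred log2(FPKM + 1) in each library for Myocd (left) and Srf (right) in orange, each with the 5 protein-coding genes of most similar profile. The Myocd set peaks in EC-Jag1KO replicate 3, and the Srf set varies over a much narrower range.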

How the data were processed

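The authors deposited 1 table of FPKM values for 35275 genes in 6 libraries. STAR, HTSeq and edgeR are named without role or version, and mm10 as the build, per the submitters' processing notes; annotation release, strand setting and filters: not given in the sources used here. Multiplied by gene length, the values add up equally across libraries, and 211650 of 211650 values (100%) came within 0.05 of a whole number of reads, which gave the depths. Chi-square per degree of freedom between libraries was 24.4 or more, so no library was entered more than once. Values were analysed as log2(FPKM + 1); genes averaging 1 FPKM or more (12165) were tested with limma 3.58.1 (R 4.3.3), genotype as the only term, intensity trend, two-sided, Benjamini-Hochberg over all genes at 0.05. The 4 ratios had exact permutation tests (scipy 1.17.1). The code of the test was checked on simulated data with independent noise and no length trend. No statement on the differences rests on that check.

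The 8 factors and all gene lists were chosen with earlier results of these data known. Of 180 listed symbols all were matched, 1 by gene ID. The text names the 8 factors, Myh11, Smtn, up to 4 tested genes of smallest unadjusted p per list other than markers, and the 5 genes most like Myocd and Srf; others, among them Acta2, Itga1, Flna, Fos and single markers, were named after their values were seen. Alternatives were pseudocount, low-value filter, scaling, intensity trend, array weights, replicate number or Xist as a term, and libraries left out. Added after seeing the data were voom on recovered reads and subtracting a gene-length loess curve (span 0.5). No per-sample column was left unused. The lymphocyte marker list is not reported here.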

Additional observations from a re-analysis of the deposited data

How the results depend on the processing

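The number of genes past the adjusted threshold was 0 in the main limma fit and with voom, 1 with a term for Xist, 2 without both female libraries and 0 to 4 with each library left out (4 without EC-Jag1KO replicate 1). Estimation of array weights stopped before it converged and gave EC-Jag1KO replicate 1 a weight of 14.7 and the others 0.259 to 1.61. That fit called 1647 of the 12165 tested genes, among them Myocd (0.34) and Foxo3 (0.40) of the 8 factors. It is given only as an alternative, and nothing about these factors rests on it. Genes with an unadjusted p under 0.05 numbered 938, and 1436 with no filter, 612 at a mean of at least 5 FPKM, 4215 with array weights, and 594, 601 and 1437 when EC-Jag1KO replicate 1, wild-type replicate 2 or EC-Jag1KO replicate 2 was left out. The sign turned for Tead1 at -0.21 under array weights, -0.13 without both female libraries and -0.040 with the length trend removed, and for Junb (0.042), Ier2 (0.075) and Xirp1 (-0.083) with array weights, and Gas6 (0.021) and Pygo2 (0.040) without both female libraries. With each library left out, log2 fold changes ranged from -0.30 to 0.026 for Mef2c, -0.10 to 0.0018 for Mef2d, -0.11 to 0.19 for Tead1, -0.073 to 0.19 for Xirp1 and -0.10 to 0.00098 for Gas6, and the growth-response median from -0.24 to -0.10, the median of MEF2-linked genes from -0.17 to 0.041 and the YAP and TEAD target median from -0.044 to 0.017. With array weights the growth-response median was -0.028 and the median of MEF2-linked genes 0.052. In these cases the cause was not tested. Myocd, Srf, Mef2a, Foxo1 and Foxo3 kept their sign in all 19 alternatives, and the 4 ratios in all 9.

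The replicate number as a block gave 0 genes past the adjusted threshold and 842 at an unadjusted p under 0.05, with the Myocd log2 fold change at 0.46 (adjusted p = 0.677) and the Foxo1 log2 fold change at 0.24 (0.731), and it changed no call. Same-numbered libraries deviated with correlations of 0.055, 0.051 and -0.050, and differently numbered ones with correlations from -0.24 to 0.19. Deviations within groups this small cannot show whether same-numbered libraries share more than a number. Both libraries numbered 3 were female. In the ratios, pairing by number gave exact p values of 0.25 for Myocd to either gene and for Srf to Smtn, the smallest that 3 pairs allow, and 0.5 for Srf to Myh11. Whether depth limits these comparisons was not tested.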
